A study of Mus musculus with 24 samples.

Results

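The calcium pumps and release channels described here are genes chosen by symbol for their place in moving calcium across membranes. The list named 8 mouse genes: the SERCA pumps Atp2a2 and Atp2a3, the plasma membrane pumps Atp2b1 and Atp2b4, the IP3 receptors Itpr1, Itpr2 and Itpr3, and the store sensor Stim1. It left out Atp2a1 and Ryr1, which encode the calcium pump and the release channel of skeletal muscle. Of the 8 genes, 6 were among the 12615 genes of the count table used here, and Atp2a3 and Itpr3 are not analysed here. All 6 passed the filter on low counts, so every gene described below was tested in every comparison.

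Calcium ions are stored in the endoplasmic reticulum (ER) at a far higher concentration than in the cytosol. SERCA pumps spend ATP to load the store, IP3 receptors open to release it when a hormone such as noradrenaline raises the second messenger IP3, and plasma membrane pumps expel calcium from the cell. STIM1 senses an emptied store and opens calcium entry channels at the cell surface. In thermogenic fat, noradrenaline acts on brown adipocytes through both cAMP and calcium, and a cycle of SERCA uptake and release that consumes ATP has been described as a source of heat that does not need UCP1.

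Brown adipose tissue (BAT) RNA of 24 mice was sequenced as 3′ tags, 1 tag per transcript, so levels of different genes can be set side by side without a correction for length. All mice carried floxed alleles of both corepressor genes (TBLR1 fl/fl;TBL1 fl/fl) and all received tamoxifen, for which the labels give an age of 5 years, whereas the paper's age is in weeks. BATdKO mice were positive for Ucp1CreERT2, a recombinase driven by the Ucp1 promoter and hence intended for thermogenic adipocytes, while Cre- mice were negative for it. The other cells of the tissue keep both genes by design. Each genotype had 6 mice kept for 4 days at 30°C and 6 mice kept at 8°C, for 6 days per the labels after stepwise cooling. The paper's text describes a shorter stay in the cold than the labels do. Mice were raised at 22°C and the temperature protocol began 3 weeks after tamoxifen. The labels call the mice female and the paper's legend calls them male, and all 24 libraries held tags of both the X-inactivation transcript Xist (20.5 to 50.2 CPM) and the Y-linked gene Ddx3y (21.8 to 36.5 CPM). CPM, the unit of all levels here, are counts scaled to the library size after TMM normalization. The paper gives a C57BL6/N background.

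Totals ranged from 699703 to 11527643 counts, with a median of 6644364, and the lowest belonged to a Cre- library at 30°C. The listed markers of brown adipocytes were present in every group, with 12 of 12 listed genes in the table and a summed level of 719 to 6140 CPM. Ucp1 alone had 28.9 to 2080 CPM, lowest in Cre- m3 at 30°C, the library with the lowest sum. At 8°C the deleted genes were higher, not lower, in the libraries labelled BATdKO. Tbl1xr1 had 33.8 to 44.3 CPM there and 18.2 to 24.6 CPM in the libraries labelled Cre- at 8°C, without overlap. In edgeR's test this was a difference of 0.92 on the log2 scale (SE, the standard error, 0.17, adjusted p = 0.00348), and Tbl1x differed by 0.39 (SE 0.10, adjusted p = 0.0633). The Tbl1x call was not made in 9 of 24 fits with a single library removed (adjusted p up to 0.151), under the muscle covariate (adjusted p = 0.228) or without the 2 shallowest libraries (adjusted p = 0.132), with the same sign in each. The floxed exons are not given in the sources used here, so it is not known whether the 3′ tags lie in them. These levels therefore do not show the deletion, and the reason for the higher levels was not tested. Groups are named by their labels. At 30°C, the library labelled Cre- m6 had 38.6 CPM of Tbl1xr1 and the library labelled BATdKO m6 had 17.0 CPM, each within the range of the other label. A further pair, m1 and m3 of the Cre- group at 30°C, held 3670 and 8330 CPM of summed skeletal muscle markers (13 of 15 listed genes in the table), against 8.22 to 1590 CPM in the other 22 libraries. Results that rest on these 4 libraries are given with and without them. In edgeR's test at 30°C, Tbl1xr1 was 0.44 higher under the BATdKO label (adjusted p = 0.36) and Tbl1x 0.35 higher (adjusted p = 0.205), neither called. Without both m6 libraries both were called, at 0.80 (adjusted p = 0.000113) and 0.51 (adjusted p = 0.0019). Without all 4 they were called at 0.69 (adjusted p = 0.00348) and 0.44 (adjusted p = 0.035). The m6 pair was picked out by its Tbl1xr1 levels, so these fits are no independent support.

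Promoter sequences are shown for Atp2b4 and Itpr2, the members whose fitted change with cold was negative in both genotypes at the largest sizes. The sequences are RefSeq windows on GRCm38.p6, 250 bases before to 50 bases after the annotated start, printed 5′ to 3′ on the gene's own strand. The Atp2b4 window is chr1:133753698-133753997 (minus strand) and lies inside the GENCODE span of the gene, so it stands for an internal start. The Itpr2 window is chr6:146502174-146502473 (minus strand), at the 5′ end of its gene. Capitals mark matches, on either strand, to 4 searched motifs: the cAMP response element (CRE) TGACGTCA, its core TGACG, the GC box GGGCGG and the TATA box TATAAA. The core is part of the full CRE, and each base is marked once.
Atp2b4: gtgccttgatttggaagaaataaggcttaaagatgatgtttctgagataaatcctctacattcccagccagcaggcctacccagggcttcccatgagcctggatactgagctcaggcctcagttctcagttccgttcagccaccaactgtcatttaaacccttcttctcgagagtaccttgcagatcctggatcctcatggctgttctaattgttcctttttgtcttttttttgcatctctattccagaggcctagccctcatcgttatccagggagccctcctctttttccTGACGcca
Itpr2: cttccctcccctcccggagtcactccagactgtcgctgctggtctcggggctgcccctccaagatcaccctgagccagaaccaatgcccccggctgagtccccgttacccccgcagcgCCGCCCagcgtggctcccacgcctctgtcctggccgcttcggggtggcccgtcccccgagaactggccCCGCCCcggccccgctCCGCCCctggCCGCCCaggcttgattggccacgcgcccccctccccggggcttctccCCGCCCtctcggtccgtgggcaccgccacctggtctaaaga
The pair differ in composition. The Itpr2 window had 73.3% G and C and 5 GC boxes, while the Atp2b4 window had 47.7% G and C, no GC box and 1 CRE core. That core lies in the last bases of the window, after the annotated start. Over all 32851 RefSeq promoter windows of this length the median was 52.7% G and C, 35.7% held a GC box, 20.8% a CRE core, 1.79% a full CRE and 13.6% a TATA box. Neither window held a full CRE or a TATA box in these letters. Windows were also present for Atp2b1 (2 windows) and Stim1, with 78.7 to 79.3% G and C and between 3 and 8 GC boxes each, and 4 of the 6 analysed genes were matched in all. The Stim1 window and 1 of the 2 Atp2b1 windows likewise held 1 CRE core each.

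Itpr2, the IP3 receptor subtype with the highest affinity for IP3, was the most abundant member in these libraries. It had a mean of 145 CPM over the 24 libraries (97.4 to 261 CPM) and lay above each of the other 5 members in 24 of 24 libraries. Next came the ER pump Atp2a2 at 54.6 CPM (36.3 to 82.6) and the plasma membrane pump Atp2b1 at 51.6 CPM (45.0 to 60.5). These neighbours in the order were not separated, since Atp2a2 was the higher in only 13 of 24 libraries. Itpr1 averaged 37.6 CPM (25.9 to 48.2) and Stim1 36.7 CPM (29.3 to 47.7), again without a stable order, with Itpr1 higher in 14 of 24. Atp2b4 was the lowest in each library, at a mean of 12.9 CPM (7.48 to 23.5). The lowest count behind any of these values was 11 tags, for Atp2b4 in the shallowest library.

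**Figure D1:**
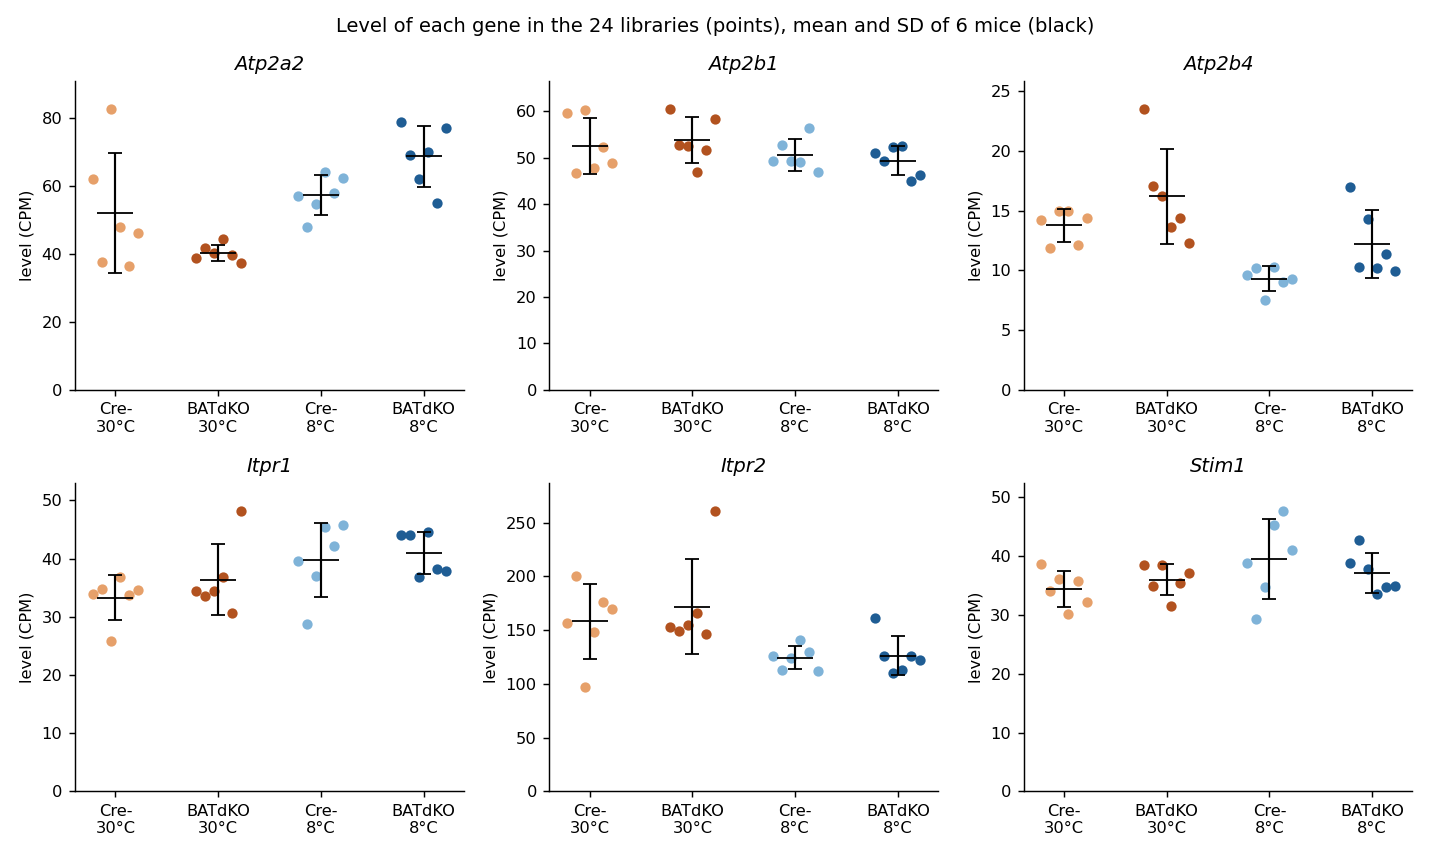
Level of each of the 6 genes in CPM (y axis, from 0) in the 4 groups by labelled genotype and temperature. Points are libraries, and black bars are the mean and SD of 6 mice. Atp2a2 in BATdKO mice separates by temperature, with 37.4 to 44.3 CPM at 30°C and 54.9 to 78.9 CPM at 8°C, and Atp2b4 in Cre- mice separates the other way.

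Cold moved the members in both directions. In BATdKO mice Atp2a2 rose by a log2 fold change of 0.76, or 1.69-fold, while Itpr2 and Atp2b4 fell, and in Cre- mice Atp2b4 was the member that passed the test. Without the muscle-rich Cre- libraries m1 and m3 at 30°C, Atp2a2 and Itpr2 were called in Cre- mice and Atp2b4 was not. No member was called for the interaction of genotype and temperature. At an adjusted p under 0.05, only Atp2a2 stayed called in BATdKO mice. The question behind these contrasts is how BAT adapts to cold with and without the corepressors TBL1 and TBLR1. Members called at an adjusted p under 0.1 numbered 1 of 6 in Cre- mice (1 lower, 0 higher) and 3 of 6 in BATdKO mice (1 higher, 2 lower). Over all 12485 tested genes, 9.15% were called with cold in Cre- mice (5.57% higher and 3.59% lower) and 7.07% in BATdKO mice (3.76% higher and 3.31% lower). With 6 genes these shares are a description of the members. The libraries of each temperature also carry their own run of library numbers, which cannot be told apart from temperature.

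Atp2a2 encodes SERCA2, the calcium pump of the ER found in most tissues and, as a splice form, in cardiac and slow muscle. In BATdKO mice it had 37.4, 39.9 and 44.3 CPM at 30°C (lowest, median, highest) and 54.9, 69.5 and 78.9 CPM at 8°C. No library at 8°C overlapped with those at 30°C. The means were 40.3 ± 2.40 CPM (SD, n = 6) and 68.6 ± 9.07 CPM (SD, n = 6), and the log2 fold change was 0.76 (SE 0.14, 95% interval 0.47 to 1.05, adjusted p = 0.00141, edgeR's quasi-likelihood test). In Cre- mice the gene had 36.3, 47.0 and 82.6 CPM at 30°C and 47.8, 57.5 and 64.2 CPM at 8°C. There the groups overlapped, with a log2 fold change of 0.13 (SE 0.14, 95% interval -0.16 to 0.42, adjusted p = 0.697).

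The highest Atp2a2 levels of the Cre- group at 30°C, 82.6 and 61.9 CPM, came from m3 and m1, the libraries rich in skeletal muscle transcripts. SERCA2 is also a pump of slow muscle fibres. The other 4 libraries of that group had 36.3 to 47.8 CPM, the highest of them level with the lowest Cre- library at 8°C (47.8 CPM). Without m1 and m3, the log2 fold change of Atp2a2 with cold in Cre- mice was 0.49 (adjusted p = 0.00625) and passed the threshold, and without both m6 libraries at 30°C as well it was 0.57 (adjusted p = 0.0032). With the log2 of the summed muscle markers as a covariate across all 24 libraries, it was 0.18 (adjusted p = 0.515). In BATdKO mice the muscle sum was 29.7 to 661 CPM at 30°C and 8.22 to 164 CPM at 8°C, and the fitted change of Atp2a2 there was 0.73 to 0.87 under these settings. The part of muscle transcripts in the levels of Atp2a2 was not tested beyond these values. In bulk tissue, a change in the number of cells of a type and a change in RNA per cell cannot be told apart.

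**Figure D2:**
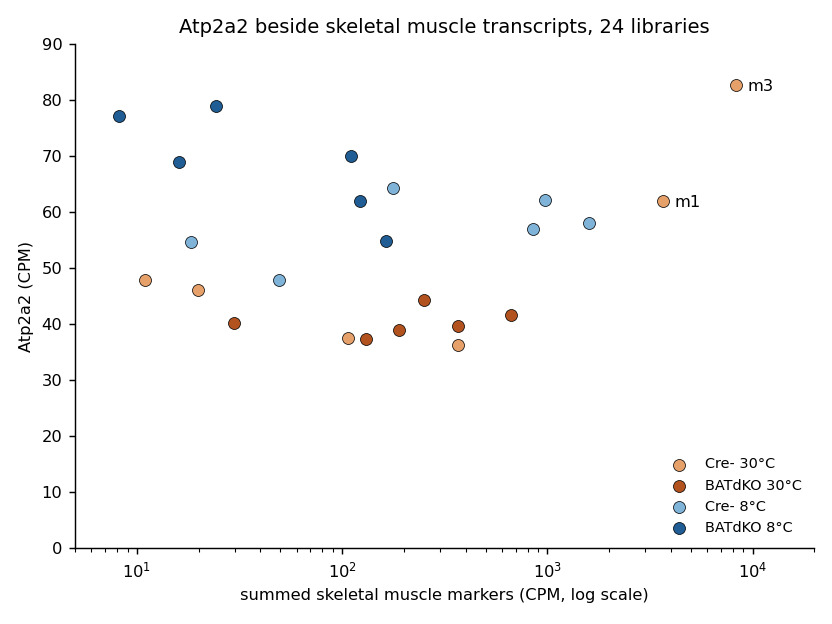
Atp2a2 level (y axis, CPM) against the summed level of 13 skeletal muscle markers (x axis, CPM, log scale) in each of 24 libraries, coloured by group. The labelled Cre- libraries m1 and m3 at 30°C lie far to the right at 3670 and 8330 CPM, whereas the 6 BATdKO libraries at 8°C hold 54.9 to 78.9 CPM of Atp2a2 at 8.22 to 164 CPM of muscle markers.

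The difference between the genotypes in the response of Atp2a2 to cold, tested as the interaction, was 0.63 on the log2 scale (SE 0.20, 95% interval 0.21 to 1.04). Its unadjusted p was 0.00432 and its adjusted p 0.358, so it was not called. Without Cre- m1 and m3 at 30°C the interaction was 0.26 (adjusted p = 0.607), and without all 4 libraries 0.16 (adjusted p = 0.816). Across the genome, 0.0961% of genes were called for the interaction, and 0 of 6 members were among them. The unadjusted p was under 0.05 for 1005 genes, and DESeq2 called 0.404% of genes and likewise 0 members. Exons of Atp2a2 overlap Gm43361 on the other strand (1.37 to 9.15 CPM), whose change with cold in BATdKO mice was 0.63 (adjusted p = 0.085). The strand setting of the counting is not given in the sources used here, so tags of the overlapping pair may not be separated.

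The plasma membrane pumps behaved unlike each other. Atp2b4 encodes PMCA4, a pump that also binds signalling partners such as nitric oxide synthase and calcineurin. In Cre- mice it had 11.9, 14.3 and 15.0 CPM at 30°C and 7.48, 9.44 and 10.3 CPM at 8°C. Every Cre- library at 8°C lay under every one at 30°C. The means were 13.8 ± 1.40 CPM and 9.31 ± 1.03 CPM (SD, n = 6 each), a log2 fold change of -0.54 (SE 0.14, adjusted p = 0.0208, edgeR). Without m1 and m3 at 30°C, which leaves 4 mice in that group, the change was -0.47 and was not called (adjusted p = 0.137), and without all 4 libraries it was -0.40 (adjusted p = 0.249). With the muscle covariate and all 24 libraries it was -0.53 and was called (adjusted p = 0.0235).

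In BATdKO mice Atp2b4 had 12.3, 15.3 and 23.5 CPM at 30°C and 9.98, 10.9 and 17.0 CPM at 8°C. The groups overlapped, although 4 of 6 libraries at 8°C lay under all of those at 30°C. The log2 fold change was -0.44 (SE 0.14, adjusted p = 0.0759), and 7 of 24 fits with a single library removed no longer made the call. Those fits removed BATdKO m1, m2 or m3 at 30°C or m2, m4, m5 or m6 at 8°C, and the value was lowest in size without m1 at 30°C (-0.31, adjusted p = 0.202). The highest 30°C library was that m1, at 23.5 CPM. Averaged over both genotypes, a contrast added after the data had been seen, Atp2b4 changed by -0.49 (SE 0.10, adjusted p = 0.00128), with a range of -0.53 to -0.43 over the 24 fits with a single library removed, each of them called.

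Atp2b1 encodes PMCA1, the housekeeping plasma membrane pump. Its group medians were 50.5 CPM in Cre- and 52.7 CPM in BATdKO mice at 30°C and 49.3 and 50.2 CPM at 8°C, and all 4 groups overlapped. The log2 fold change with cold was -0.07 in Cre- mice (95% interval -0.23 to 0.09) and -0.12 in BATdKO mice (95% interval -0.28 to 0.04), with adjusted p of 0.726 and 0.447. These intervals leave out a change of the size fitted for Atp2b4. Of all tags of the pair of pumps, Atp2b4 made up 20.8% ± 2.06 in Cre- and 23.0% ± 3.48 in BATdKO mice at 30°C, and 15.5% ± 1.66 and 19.7% ± 3.23 at 8°C (SD, n = 6 each). In Cre- mice the shares did not overlap between temperatures, at 18.8 to 23.9% and 13.2 to 17.3%, while in BATdKO mice they did.

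The IP3 receptors had fitted changes with cold of opposite sign, of which only that of Itpr2 in BATdKO mice was called within a genotype. Itpr2 had 146, 154 and 261 CPM in BATdKO mice at 30°C and 110, 124 and 161 CPM at 8°C. Although the ranges overlapped, 5 of 6 libraries at 8°C lay under every library at 30°C. The means were 172 ± 44.2 and 126 ± 18.3 CPM (SD, n = 6 each), with a log2 fold change of -0.45 (SE 0.14, adjusted p = 0.0731). The BATdKO library m6 at 30°C held the highest value of 261 CPM, and without both m6 libraries the change was -0.30 (adjusted p = 0.207), which is no longer called. Leaving out m2, m3, m4, m5 or m6 of the BATdKO group at 8°C also ended the call, at adjusted p of 0.102 to 0.159.

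In Cre- mice Itpr2 had 97.4, 163 and 200 CPM at 30°C and 112, 125 and 141 CPM at 8°C. The lowest value was that of the muscle-rich library m3 and lay under all the cold libraries, so the groups overlapped. The log2 fold change was -0.35 (SE 0.14, adjusted p = 0.161), and without m1 and m3 it was -0.49 (adjusted p = 0.0319). Without both m6 libraries at 30°C it was -0.33 (adjusted p = 0.0907), and leaving out BATdKO m6 at 30°C or Cre- m3 at 30°C alone also brought it past the threshold. Averaged over genotypes Itpr2 changed by -0.40 (SE 0.10, adjusted p = 0.0084), from -0.46 to -0.32 over the fits that left out 1 library, and was called in each.

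Itpr1, the receptor subtype best known from neurons and smooth muscle, had 25.9, 34.3 and 36.9 CPM in Cre- mice at 30°C and 28.8, 40.8 and 45.7 CPM at 8°C. Cold libraries were higher than all warm ones in 5 of 6 cases. In BATdKO mice the values were 30.7, 34.5 and 48.2 CPM at 30°C and 36.9, 41.1 and 44.5 CPM at 8°C, where the highest warm library was again m6. The log2 fold changes were 0.27 (SE 0.11, adjusted p = 0.162) and 0.17 (SE 0.11, adjusted p = 0.476), neither of them called. In Cre- mice the change passed the threshold without Cre- m2 at 8°C (0.35, adjusted p = 0.0398) and without BATdKO m6 at 30°C (0.27, adjusted p = 0.0947). The average over genotypes was 0.22 (SE 0.08, adjusted p = 0.0702), which 9 of 24 fits with a single library removed did not call, with adjusted p up to 0.146, nor did the fit without Cre- m1 and m3 at 30°C (adjusted p = 0.185). The 9 libraries concerned were Cre- m3 and BATdKO m2 and m5 at 30°C, Cre- m4, m5 and m6 at 8°C, and BATdKO m1, m2 and m4 at 8°C.

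As a share of the tags of both receptors, Itpr1 made up 17.8% ± 2.36 in Cre- and 17.7% ± 1.08 in BATdKO mice at 30°C. At 8°C it made up 24.2% ± 2.80 and 24.6% ± 2.36 (SD, n = 6 each). BATdKO libraries were fully separated by temperature, at 15.6 to 18.4% and 21.4 to 28.2%, and in Cre- mice the ranges of 14.8 to 21.0% and 20.3 to 28.9% overlapped. The share is within each library and does not depend on the scaling between libraries, and the BATdKO library m6 at 30°C, high for both receptors, had the lowest share of its group. Both labelled genotypes had nearly the same share at each temperature. Exons of Itpr1 overlap Gm44101 on the other strand (0.891 to 3.24 CPM), whose adjusted p with cold was 0.763 and 0.771.

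**Figure D3:**
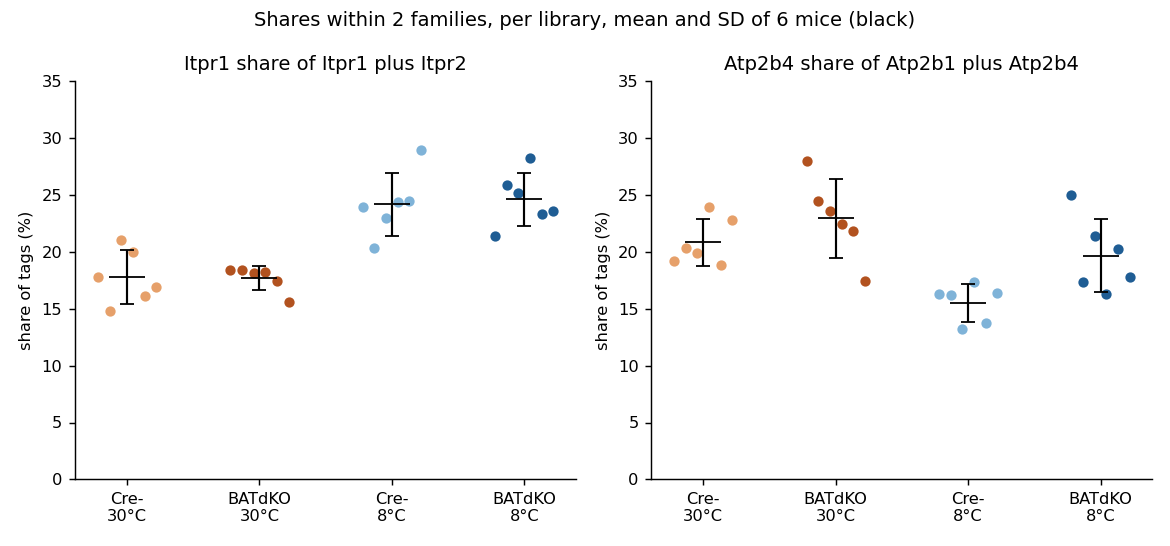
Share of Itpr1 in the tags of Itpr1 plus Itpr2 (left) and of Atp2b4 in the tags of Atp2b1 plus Atp2b4 (right), in percent, for each library in the 4 groups. Points are libraries, and black bars are the mean and SD of 6 mice. The Itpr1 share lies at 15.6 to 18.4% in BATdKO mice at 30°C and at 21.4 to 28.2% at 8°C.

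Stim1, the sensor that couples an empty store to calcium entry, had medians of 34.9 and 36.3 CPM in Cre- and BATdKO mice at 30°C and of 39.9 and 36.4 CPM at 8°C. Its ranges overlapped in every comparison. With cold it changed by 0.18 in Cre- mice (95% interval -0.02 to 0.38, adjusted p = 0.322) and by 0.05 in BATdKO mice (95% interval -0.15 to 0.24, adjusted p = 0.874). Without Cre- m2 at 8°C the Cre- value was 0.25 and was called (adjusted p = 0.0845). Averaged over genotypes, 4 of 6 members were called with cold (Atp2a2 and Itpr1 higher, Atp2b4 and Itpr2 lower) and 15.6% of all tested genes were.

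Some markers of other cell types moved with temperature too. Summed endothelial markers were 190 to 248 CPM at 30°C and 219 to 299 CPM at 8°C, with 4 of 8 called higher in Cre- and 2 of 8 in BATdKO mice. Summed platelet and erythroid markers were 1990 to 2740 CPM at 30°C and 2500 to 3830 CPM at 8°C. The 3 of 5 called higher in each genotype were the haemoglobin genes Hba-a1, Hbb-bs and Hbb-bt. The platelet genes Pf4 (-0.25 in Cre- and -0.05 in BATdKO mice) and Itga2b (0.01 and 0.18) were not called. Of the brown adipocyte markers 4 of 12 were called higher and 1 lower with cold in each genotype, while 0 of 8 macrophage markers were called and 0 of 8 lymphocyte markers were among the genes of the table. Smooth muscle and pericyte markers had 1 of 5 called higher in Cre- mice and 0 in BATdKO mice. Nerve and Schwann cell markers had 1 of 2 and 0. That call was S100b, at a log2 fold change of 1.71, while Mbp was at 0.05 in Cre- mice. Skeletal muscle markers had 1 of 13 called lower with cold in Cre- mice and 0 in BATdKO mice, at median log2 fold changes of -1.79 and -2.16. Between genotypes 0 of 13 were called, with medians of -3.21 at 8°C and -2.83 at 30°C. The median summed level was 237 CPM in Cre- and 220 CPM in BATdKO mice at 30°C, and 512 and 67.6 CPM at 8°C. No listed marker in the table was at 0 in every library. The part of these cell types in the members' changes was not tested.

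Between the labelled genotypes 0 of 6 members were called at either temperature. At 8°C 1.82% of all tested genes were called, and at 30°C 0% were, although 1153 and 1303 genes had an unadjusted p under 0.05. At 8°C Atp2b4 was 0.34 higher in the libraries labelled BATdKO (SE 0.15, unadjusted p = 0.0274, adjusted p = 0.423). Its values were 9.98 to 17.0 CPM in BATdKO and 7.48 to 10.3 CPM in Cre- mice, and 4 of the 6 BATdKO libraries lay above all Cre- libraries. Atp2a2 differed by 0.25 (95% interval -0.04 to 0.54, adjusted p = 0.634) at 8°C, where again 4 of 6 BATdKO libraries lay above the Cre- range. The other 4 members differed by -0.09 to 0.03 on the log2 scale.

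At 30°C Atp2a2 was -0.37 on the log2 scale in the libraries labelled BATdKO relative to Cre- (SE 0.14, unadjusted p = 0.0148, adjusted p = 0.351). Without the muscle-rich m1 and m3 of the Cre- group this difference was -0.01 (adjusted p = 1), and without all 4 libraries it was 0.09 (adjusted p = 0.846). Atp2b4 was 0.24 higher under the BATdKO label (95% interval -0.04 to 0.53, adjusted p = 0.576). The remaining members differed by 0.02 to 0.14, and DESeq2, which called 0.713% of genes at 30°C, called 0 members at either temperature. The intervals of Itpr1, Itpr2 and Stim1 at 8°C reach no further than -0.29 and 0.31, so a genotype difference of the size of the cold response of Atp2a2 in BATdKO mice lies outside them.

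**Figure D4:**
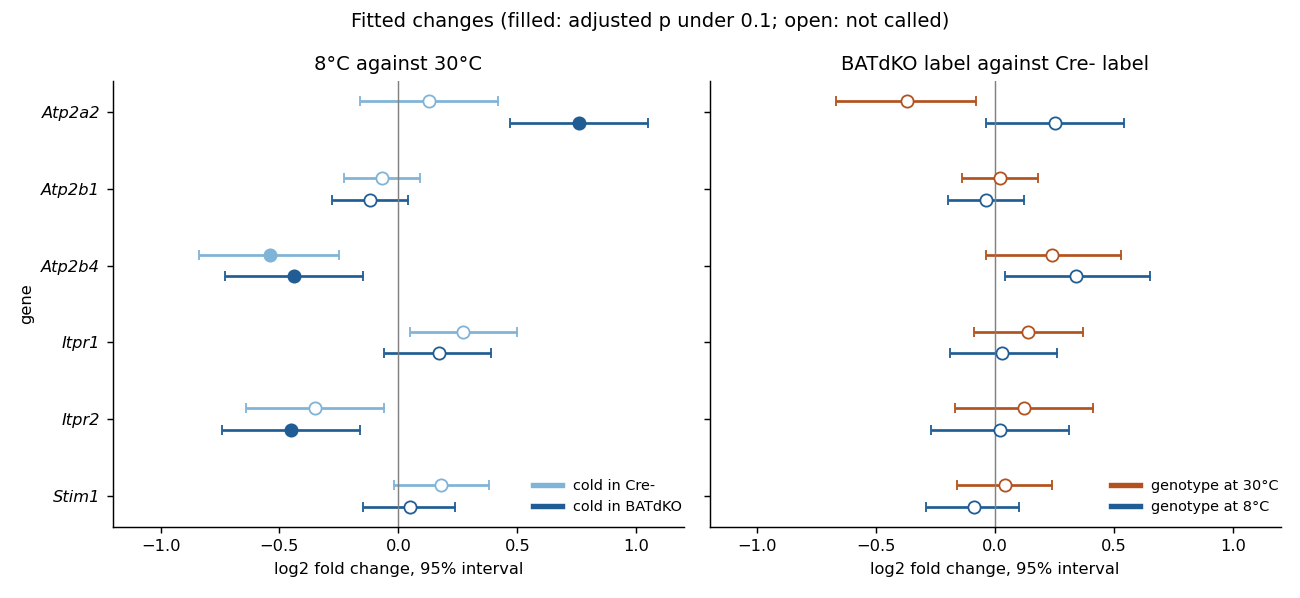
Fitted log2 fold change (x axis) with its 95% interval for each of 6 genes, for cold in each genotype (left) and for the BATdKO against the Cre- label at each temperature (right). Filled points have an adjusted p under 0.1 and open points do not. Atp2a2 lies at 0.76 with cold in BATdKO mice, Atp2b4 at -0.54 and -0.44, and no point on the right is filled.

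Other genes of calcium handling were taken from 12 lists with 126 symbols, of which 84 were tested. With cold, 10 of 84 (11.9%) were called in Cre- mice (9 higher, 1 lower) and 6 of 84 (7.14%) in BATdKO mice (4 higher, 2 lower), shares close to the 9.15% and 7.07% of all genes. Between genotypes, 2 of 84 were called at 8°C and 0 at 30°C, and 0 for the interaction. The median log2 fold change of the 84 genes with cold was 0.00 in Cre- and 0.01 in BATdKO mice, beside -0.02 and -0.003 for all genes.

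Among partners of the pumps, 1 of the 2 tested PMCA subunits was called with cold. Bsg, which encodes basigin, a subunit of plasma membrane calcium pumps and of lactate transporters, rose with cold by 0.85 in Cre- (SE 0.10) and by 1.13 in BATdKO mice (SE 0.10), while its relative Nptn was not called. Of the 9 listed SERCA regulators 3 were tested, namely Hrc, Tmx1 and S100a1, and 0 were called in any of the 5 contrasts. The inhibitory peptides sarcolipin (Sln) and phospholamban (Pln) are not analysed here. The Golgi pump Atp2c1, the plasma membrane pump Atp2b2 and the exchanger Slc8a1 had adjusted p above the threshold throughout. Of the 5 store-operated entry genes tested (Stim2, Orai1, Orai3, Saraf and Cracr2b) 0 were called with cold in either genotype, with log2 fold changes of -0.50 to 0.19.

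Genes of IP3 production and removal were called higher in 4 of 10 cases with cold in Cre- mice and in 1 of 10 in BATdKO mice. Of all tested genes, 5.57% and 3.76% were called higher in these contrasts. With 10 genes these counts are a description. Itpkb, a kinase that phosphorylates IP3, rose by 0.53 in Cre- mice (SE 0.11, adjusted p = 0.00371). The phospholipase gene Plcb4 rose by 0.72 (SE 0.17, adjusted p = 0.00706), and Adra1a, the noradrenaline receptor that couples to phospholipase C, by 0.70 (SE 0.21, adjusted p = 0.0486). The corresponding values in BATdKO mice were 0.08, 0.39 and 0.20 and were not called, and the interactions were not called either (adjusted p of 0.435, 0.75 and 0.686). Plcb1 changed by 0.26 in Cre- and 0.29 in BATdKO mice and was called in both, but 7 and 3 of 24 fits with a single library removed did not call it. In Cre- mice its call was also lost under upper-quartile scaling (adjusted p = 0.111) and with only the groups of the contrast (adjusted p = 0.126). The call of Adra1a was lost in 5 of the 24 fits with 1 library removed, with adjusted p up to 0.141.

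Among 14 tested regulators of the IP3 receptor, Itprid2 rose by 1.15 (SE 0.24) and Ahcyl1, which encodes the receptor inhibitor IRBIT, by 0.53 (SE 0.16) with cold in Cre- mice. The related gene Ahcyl2 fell by 0.86 in Cre- and by 0.84 in BATdKO mice, and at 8°C it was 0.84 higher under the BATdKO label (SE 0.20, adjusted p = 0.0301), a call lost under the muscle covariate (0.60, adjusted p = 0.109). Letm1, which encodes a mitochondrial inner membrane protein linked to cation exchange, was the single call among 12 genes of mitochondrial calcium uptake and rose by 1.11 and 0.95. None of the 12 ER buffer and leak genes was called. Among 20 genes of calcium-dependent signalling, Camk2d, a calcium-dependent kinase gene, fell by 0.59 in BATdKO mice, and its relative Camk2b was lower under the BATdKO label at 8°C, at -0.90 (SE 0.19, adjusted p = 0.0105). Without Cre- m1 and m3 at 30°C, Ahcyl1, Plcb1 and Adra1a were no longer called with cold in Cre- mice, at 0.40, 0.27 and 0.49. Ahcyl1 was also not called with only the groups of the contrast (adjusted p = 0.105).

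**Figure D5:**
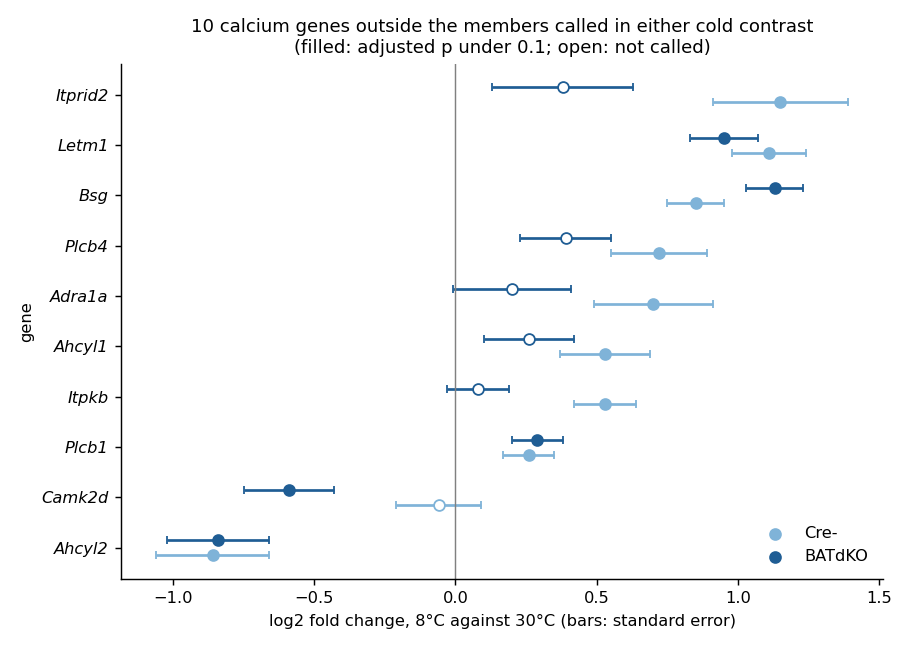
Log2 fold change with cold (x axis) for 10 genes of the calcium lists called in either genotype, with bars for the standard error. Filled points have an adjusted p under 0.1 and open points do not. Letm1 (1.11 and 0.95), Bsg (0.85 and 1.13) and Ahcyl2 (-0.86 and -0.84) are called in both genotypes, whereas Itpkb, Plcb4 and Adra1a are called in Cre- mice.

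The 24 libraries differ in temperature, genotype and tissue composition, so a correlation across them can come from differences between groups. The pattern of each member is set beside those of other genes as a description only. The log2 CPM of Atp2a2 ran closest to that of Got1, an enzyme of the malate-aspartate shuttle (Pearson r = 0.761, n = 24), and then to Fndc5 (0.725) and Ldha (0.721). Itpr1 was closest to Cib2, a calcium-binding protein (r = 0.841), Acadm (0.827) and Clic5 (0.824), and Itpr2 to the diacylglycerol kinase gene Dgkd (r = 0.833), Aplp2 and Stk39. Stim1 ran with the endothelial marker Pecam1 (r = 0.763), and after removal of the group means the value was 0.751. Atp2b1 was nearest to Limch1 (r = 0.759), Cd74 and Timp2, and Atp2b4 to Tnrc6b (r = 0.806), Tra2a and Cdkn2c. After removal of the group means, the Atp2b4 values fell to 0.455 for Tnrc6b, 0.518 for Tra2a and 0.425 for Cdkn2c. Those of Atp2a2 were 0.612 for Got1, 0.713 for Fndc5 and 0.395 for Ldha. The named partners of Itpr1, Itpr2 and Atp2b1 kept values of 0.725 to 0.837. Among the members themselves, Atp2a2 and Itpr2 ran most opposite to each other (r = -0.67), and Itpr1 and Stim1 were the most alike pair (r = 0.49).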

How the data were processed

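BAT RNA of 24 mice was prepared with a 3′ tag kit. The values are raw counts of tags per gene, deposited by the authors for 12615 genes and not normalized. They came from reads trimmed by BBDuk, mapped by STAR to GRCm38 and assigned to genes by Rsubread. The annotation release, the strand setting and the rule for leaving out genes are not given in the sources used here, and the submitters' processing notes name DESeq2. The paper describes removing outliers without naming them, so all 24 libraries were used.

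Identifiers were matched to symbols and positions with GENCODE on GRCm38 (12608 of 12615). Counts were fitted in R 4.3.3 with edgeR 4.0.16 and limma 3.58.1: TMM scaling (factors 0.838 to 1.142), filterByExpr (12485 genes kept, 130 removed), 1 quasi-likelihood model in which each group has its own mean, Benjamini-Hochberg adjustment over all tested genes and the paper's threshold of 0.1. Standard errors (SE) are the absolute log2 fold change over the square root of F. In 3 of 36 member tests edgeR replaced p by the larger Poisson p. Nothing in the labels says more of the replicates than that they are separate mice, and mice are named m1 to m6 within a group, which pairs none across groups.

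Alternatives were DESeq2 1.42.0, RLE and upper-quartile scaling, no filter, a mean count of at least 10, robust dispersion, only the groups of a contrast, a threshold of 0.05 and leaving out each library. Leaving out the muscle-rich pair, the m6 pair, all 4, or the 2 shallowest libraries, the muscle covariate and the average over genotypes were added later, with the data known. The members and lists were chosen with earlier results of these data known. Every member was tested in each contrast, but not every fitted value is printed. For the deleted genes only the genotype contrasts are given. Of each calcium list at most the 3 called genes with the smallest p per contrast are named, and so are the 3 genes most correlated with a member. List counts are by the symbols as listed, so a gene held under a symbol not listed is not counted. 1 gene of the calcium lists is counted but not reported here. The fitting steps were tested on simulated data. Total counts ranged from 699703 to 11527643, and intervals of fold changes include the spread between mice.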

Additional observations from a re-analysis of the deposited data

Results flagged for a closer look

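In 24 checks (6 members in 4 groups of 6 libraries), the gap between the highest or lowest library and its neighbour exceeded Dixon's 95% critical value in 4 cases. Chance alone flags about 1 group in 20 at this limit. Itpr2 stood at 261 CPM and Itpr1 at 48.2 CPM in the library labelled BATdKO m6 at 30°C, the highest of that group for both receptors (gaps of 0.827 and 0.642 of the range). Itpr1 stood at 25.9 CPM, the lowest of its group, in the muscle-rich Cre- library m3 at 30°C (0.718). Itpr2 stood at 161 CPM, the highest of its group, in the BATdKO library m1 at 8°C (0.68), which has the second lowest total of the series at 2738613 counts.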

How the results depend on the processing

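DESeq2, RLE scaling, no filter, a mean count of at least 10 and robust dispersion left all 36 member results with the same direction and on the same side of the threshold. Of settings fixed earlier, a threshold of 0.05 left 1 member called with cold in BATdKO mice in place of 3, fitting only the groups of the contrast ended the call of Atp2b4 there (-0.45, adjusted p = 0.132), and upper-quartile scaling ended that of Itpr1 averaged over genotypes (0.19, adjusted p = 0.124). Leaving out 1 library at a time gave 1 to 3 members called with cold in Cre- mice and 1 to 3 in BATdKO mice. With cold in Cre- mice, 2 members were called without the muscle-rich pair, 3 without the m6 pair and 2 without all 4. Under the muscle covariate Atp2b4 with cold in BATdKO mice (-0.42, adjusted p = 0.136) and Itpr1 averaged over genotypes (0.21, adjusted p = 0.111) were not called. Where a call changed, the cause was not tested beyond the libraries left out.

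Signs that turned belonged to uncalled differences. For the genotype at 8°C, these were Atp2b1 (0.02) and Itpr2 (-0.08) under the muscle covariate and Itpr2 without the 2 shallowest libraries (-0.06). For the genotype at 30°C they were Atp2a2 (0.09), Itpr1 (-0.03) and Itpr2 (-0.21) without all 4 libraries, Atp2b1 (-0.04) and Itpr2 (-0.02) without the m6 pair, and Itpr2 (-0.03) without the muscle-rich pair. With cold in Cre- mice it was Atp2b1, at 0.05 without the muscle-rich pair and 0.03 without all 4. For the interaction they were Itpr2 without the muscle-rich pair (0.04), the m6 pair (0.04) and all 4 (0.22), and Atp2b4 (-0.12) and Itpr1 (0.05) without all 4. Leaving out 1 library turned the sign of the genotype difference at 8°C of Itpr1 (-0.04 to 0.08) and Itpr2 (-0.05 to 0.06), at 30°C of Atp2b1 (-0.02 to 0.06) and Itpr2 (-0.04 to 0.20), of the interaction of Itpr2 (-0.18 to 0.06), and took Stim1 with cold in BATdKO mice to between 0.00 and 0.07. No paired analysis was possible because the labels give the groups no shared mouse numbers. Depth limits Atp2b4 most, with 11 tags in the shallowest library.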
